A study of Mus musculus with 6 samples.

Results

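Gata2, Gata3 and Hand1 encode transcription factors of the sympathoadrenal lineage, the neural crest line that gives rise to sympathetic neurons and to the chromaffin cells of the adrenal medulla. They were followed here in adrenal glands of wild-type mice and of mice without PACAP. Clones were taken as theirs where the probe annotation, with current mouse symbols, gave 1 of these 3 symbols. This gave 4 of the 36022 cDNA clones on the array: 2 of Gata2, 1 of Gata3 and 1 of Hand1, each printed once. Clones are named here by the print block, the area laid down by 1 pin, in which they lie: Gata2 in blocks 18 and 23, Gata3 in block 21 and Hand1 in block 42. The titles given to the 4 clones in the scanner files named the same genes.

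PACAP, pituitary adenylate cyclase-activating polypeptide, is a neuropeptide released by the splanchnic nerve onto chromaffin cells, and the study looked for adrenal genes that depend on it. Each of 6 two-colour arrays held total RNA of the adrenal gland of a 129XC57BL6 F2 PACAP +/+ mouse group, labelled with Cy5 (red), against that of a 129XC57BL6 F2 PACAP -/- group, labelled with Cy3 (green). The knockout was not described in the labels as limited to a cell type, and age and sex were not given there. Dyes were never exchanged, so genotype and a dye effect of a clone cannot be told apart. The labels number the arrays as repeats without naming animals, so p-values measure array-to-array spread, some or all of which may be technical. The whole gland was used, in which cortex and medulla are mixed, and in such bulk RNA fewer cells of a type and less RNA per cell cannot be told apart.

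GATA factors bind DNA through zinc fingers at sites with the core GATA, and GATA2 and GATA3 act in the network that turns neural crest cells into noradrenergic cells. GATA3 is known to be needed for the expression of tyrosine hydroxylase and for the survival of sympathoadrenal cells. HAND factors are basic helix-loop-helix proteins that pair with E proteins such as Tcf3 and Tcf12 and bind E-boxes, sites with the letters CANNTG. HAND2 is the member best known from sympathetic neurons, while HAND1 is known for its roles in heart and placenta and is also made in the sympathoadrenal lineage. Hand2 itself, and Gata5, had no clone under these symbols.

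The array reports on transcripts and not on where they start, and the reference promoter table lists 2 separate start regions for Gata2. The 250 bases before each start are shown, 5′ to 3′ on the gene's strand, as the reference sequence next to the listed starts. They come from RefSeq (GRCm38.p6), where 2 of the 3 genes matched. Capitals mark GC boxes (GGGCGG) and CCAAT boxes (CCAAT), searched on both strands, so that CCAAT on the other strand reads ATTGG.
Gata2, chr6:88193641-88193890, plus strand: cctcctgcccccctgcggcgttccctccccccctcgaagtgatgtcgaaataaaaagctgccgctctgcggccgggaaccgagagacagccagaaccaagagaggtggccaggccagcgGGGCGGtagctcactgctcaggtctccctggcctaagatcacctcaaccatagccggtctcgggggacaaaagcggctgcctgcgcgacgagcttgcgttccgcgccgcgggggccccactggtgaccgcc
Gata2, chr6:88198414-88198663, plus strand: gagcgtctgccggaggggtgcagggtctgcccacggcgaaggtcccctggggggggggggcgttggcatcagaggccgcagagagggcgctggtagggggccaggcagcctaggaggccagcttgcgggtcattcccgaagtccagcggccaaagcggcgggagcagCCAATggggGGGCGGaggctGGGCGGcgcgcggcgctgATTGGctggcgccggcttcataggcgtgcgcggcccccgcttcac
Gata3, chr2:9878601-9878850, minus strand: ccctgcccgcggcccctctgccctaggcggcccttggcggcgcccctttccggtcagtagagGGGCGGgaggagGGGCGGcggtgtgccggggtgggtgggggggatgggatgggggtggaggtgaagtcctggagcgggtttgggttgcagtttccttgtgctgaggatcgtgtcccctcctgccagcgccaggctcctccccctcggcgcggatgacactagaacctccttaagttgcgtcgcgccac
In that assembly the Gata2 gene spans positions 88193891 to 88207032 of chromosome 6, Gata3 spans 9857078 to 9887953 of chromosome 2 and Hand1 spans 57828713 to 57832147 of chromosome 11. The downstream Gata2 window and the Gata3 window lie inside the span of their own gene.

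The windows are rich in G and C, at 67.2%, 74.0% and 70.0%. The upstream Gata2 window holds 1 GC box, 131 to 126 bases before the start. The downstream Gata2 window holds 2 GC boxes and 2 CCAAT boxes, all within the last 83 bases, and the Gata3 window holds 2 GC boxes between 188 and 171 bases before the start. For comparison, 32.7% of 32851 promoter windows of the same length hold a GC box and 33.8% a CCAAT box. None of the 3 windows holds the letters TATAAA (12.4% of all windows), the cAMP response element TGACGTCA (1.5%), its core TGACG (17.8%), which the full element contains, a GATA site, read as GATA preceded by A or T and followed by A or G (26.5%), or an E-box CANNTG (66.2%), on either strand. These are descriptions of the letters in these windows only.

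All 24 readings of the 4 clones, 6 arrays each, had a quality score of 1.0, where scores range from 0 to 1 and those above 0.3 were used. In the red channel, which carried wild-type RNA, the Gata2 clone of block 18 gave a background-subtracted signal of 8.78, 2.26, 3.26, 1.97, 3.55 and 5.98 times its local background on arrays 1 to 6. In the green channel, which carried knockout RNA, it gave 10.5, 10.0, 7.86, 9.84, 10.3 and 18.9 times background. Array 1 was highest in red and array 6 in green.

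The other Gata2 clone, of block 23, gave red signals of 7.84, 2.37, 2.43, 1.91, 3.51 and 1.13 times background and green signals of 6.65, 9.58, 4.11, 8.62, 8.41 and 8.82 times background. Its red signal on array 6 was thus little above the background itself, while the block 18 clone of the same gene was not dim there. Across the 4 clones, 3 of the 24 red signals were under 2 times background, and all 3 belonged to Gata2, on arrays 4 and 6.

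The Gata3 clone gave red signals of 10.9, 2.84, 5.05, 2.82, 5.34 and 4.45 times background and green signals of 9.003, 8.22, 12.2, 11.5, 13.8 and 16.7 times background. The Hand1 clone gave red signals of 46.5, 11.3, 6.55, 9.43, 14.0 and 15.1 times background and green signals of 45.3, 56.4, 34.5, 51.3, 68.0 and 45.3 times background. In all 4 clones red was highest on array 1, and in the median over all clones red was also highest there, at 4.79 times background against 1.14 to 2.11 on the others, while green lay between 5.39 and 7.07. Brightness differs between probes for reasons other than transcript number, so the clones' levels were not ranked.

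**Figure D1:**
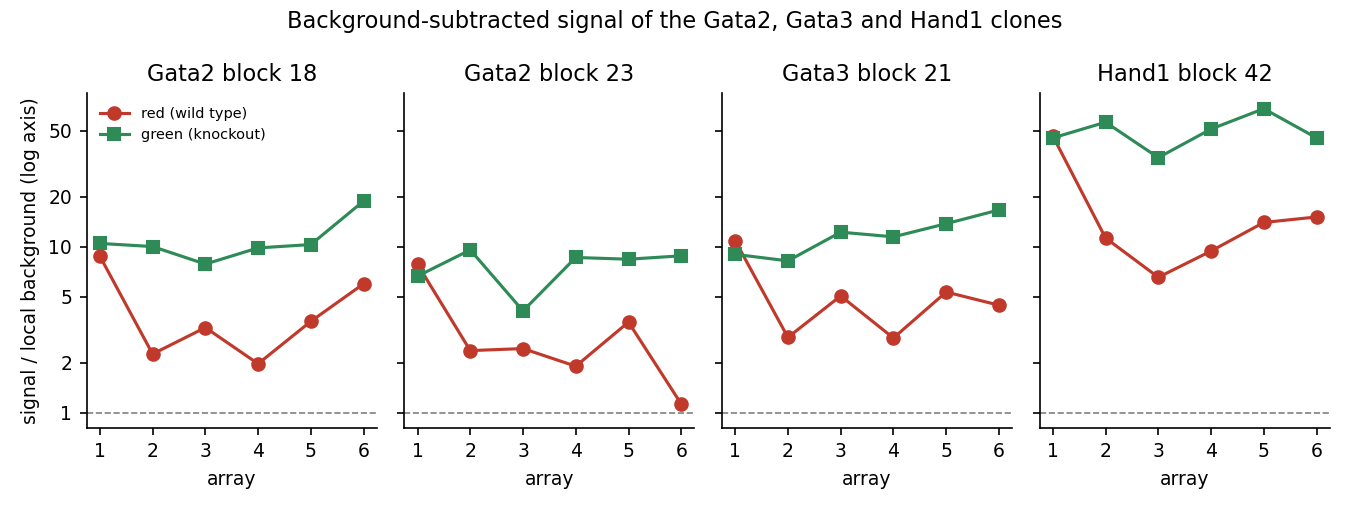
Background-subtracted signal over local background (log axis) of the 4 clones on arrays 1 to 6, with red circles for the wild-type channel and green squares for the knockout channel; the dashed line marks a signal equal to the background. Red falls from array 1 to array 2 in every panel, and the lowest point is the red signal of the Gata2 clone of block 23 on array 6, at 1.13.

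Because the red channel was dimmer, ratios before normalization lay above 0 nearly throughout. Green over red, on the log2 scale, was 0.19 to 2.34 for Gata2 of block 18, 0.34 to 2.59 for Gata2 of block 23, -0.087 to 1.61 for Gata3 and 0.19 to 1.84 for Hand1. Ratios were therefore normalized within each array by a loess curve over spot brightness, drawn through all blocks together (global loess) and, beside it, within each block (print-tip loess). All ratios below are log2 knockout over wild type after such normalization.

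Neither Gata2 clone passed the test. The clone of block 18 had global loess ratios of -0.18, -0.37, -0.42, 0.0045, -0.066 and 0.55 on arrays 1 to 6. Array 6 stood high and arrays 2 and 3 low, so values lay on both sides of 0. The mean was -0.08 ± 0.35 (SD, n = 6), with a 95% interval of -0.38 to 0.22 and an adjusted p of 0.696 by limma with Benjamini-Hochberg adjustment over 28710 clones. With print-tip loess it was -0.015 (95% interval -0.21 to 0.18, limma adjusted p = 0.920).

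The clone of block 23 had ratios of -0.047, -0.30, -0.049, 0.016, 0.055 and 0.14. They were evenly divided about 0, with array 2 lowest. The mean was -0.031 ± 0.15 (SD, n = 6), with a 95% interval of -0.28 to 0.22 and a limma adjusted p of 0.861. With print-tip loess it was -0.0067 (95% interval -0.17 to 0.15, limma adjusted p = 0.958). In this clone a ratio beyond 0.32 in either direction would have passed with global loess, and in the other Gata2 clone one beyond 0.39. The Gata2 clones differed from each other by -0.049 ± 0.11 (SE, n = 6 arrays, exact sign-flip permutation p = 0.594, two-sided).

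Gata3 had ratios of -0.42, -0.29, -0.15, -0.23, -0.018 and -0.27 with global loess. All 6 lay below 0, the one of array 5 barely. The mean was -0.23 ± 0.14 (SD, n = 6), which is 0.853-fold with a 95% interval of 0.718 to 1.01, and it did not pass (limma adjusted p = 0.147). The exact sign-flip permutation test over the 6 arrays gave p = 0.03125, which is the smallest p that 6 arrays can give. Within print blocks the ratios were -0.16, -0.23, -0.13, -0.14, 0.022 and 0.00010, with arrays 5 and 6 at or just above 0, and the mean was -0.11 ± 0.098 (SD, n = 6, limma adjusted p = 0.337, exact permutation p = 0.125). The spread of Gata3 over arrays was small. Its SD of 0.14 with global loess compares with a median of 0.33 over all clones, and 3.34% of clones had a smaller one.

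Hand1 had ratios of -0.042, 0.34, 0.51, 0.41, 0.10 and -0.23 with global loess. Arrays 2, 3 and 4 were high and array 6 was low. The mean of 0.18 ± 0.29 (SD, n = 6) did not pass (95% interval -0.098 to 0.46, limma adjusted p = 0.307), and its sign turned to -0.071 when arrays were centred on their medians instead and to -1.13 in the authors' value table. With print-tip loess arrays 2 and 3 came down to 0.024 and -0.012, array 5 became the highest at 0.30 and array 6 stayed the lowest at -0.35. The print-tip mean was 0.020 ± 0.22 (SD, n = 6, 95% interval -0.19 to 0.23, limma adjusted p = 0.898).

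**Figure D2:**
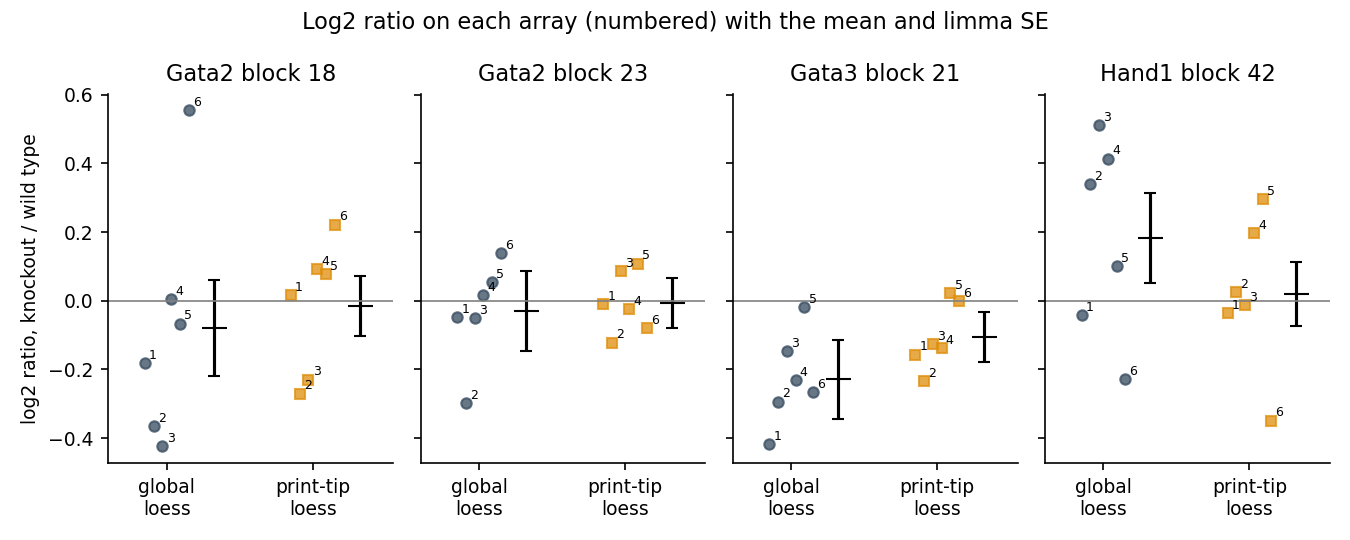
Log2 ratio of knockout over wild type for the 4 clones on each array (points, numbered 1 to 6), with global loess in dark circles and print-tip loess in orange squares; bars are the mean and its limma standard error. Gata3 lies below 0 on all 6 arrays with global loess, between -0.42 and -0.018, while the other 3 clones lie on both sides of 0.

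Of the 4 clones, 0 passed with either normalization, where 30.4% of all 28710 clones tested passed with global loess (16.2% higher and 14.2% lower in the knockout) and 11.4% with print-tip loess (6.74% higher and 4.62% lower). At an unadjusted limma p under 0.05 the count was also 0 of 4 with both, while the exact test gave 1 of 4, Gata3, with global loess and 0 of 4 with print-tip loess. With median centring 0 of 4 passed, and 1 of 4, Gata3, was under 0.05 by unadjusted limma p and by the exact test. With 4 clones, a count of 0 against these shares is a description of these genes. The count does not show that they were equal in both genotypes. The 95% intervals of the 4 ratios together ran from -0.48 (Gata3) to 0.46 (Hand1) with global loess and from -0.27 to 0.23 with print-tip loess. They cover the spread between arrays only, and a dye effect of a clone would lie inside the ratio itself.

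The authors' value table, turned to knockout over wild type and centred on each array, gave other values; in that table background had been subtracted a second time. The Gata2 clones had -0.85 and -0.23, Gata3 had -1.18 and Hand1 had -1.13, with limma adjusted p of 0.131, 0.752, 0.0672 and 0.0918. The median over all clones was 0.43 in that table, so that all 4 clones lay lower still relative to it. Of 9917 clones called there, 73.6% were higher in the knockout, against 53.2% of the 8735 called with global loess. Of the 4 clones, 0 passed, 2 had an unadjusted limma p under 0.05 and 3 an exact permutation p of 0.03125.

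Differences between the 4 clones were compared over the 6 possible pairs, with the array as the pair and an exact two-sided sign-flip permutation test. The largest was Gata3 minus Hand1 with global loess, at -0.41 ± 0.11 (SE, n = 6 arrays). It was below 0 on 6 of 6 arrays (exact p = 0.03125, 0.188 after Benjamini-Hochberg adjustment over the 6 pairs). With print-tip loess it was -0.13 ± 0.10 (SE, n = 6) and below 0 on 5 of 6 arrays (exact p = 0.25, adjusted 0.5). Gata3 was also the lower clone against Gata2 of block 23 on 5 of 6 arrays, by 0.20 ± 0.069 (SE, n = 6, exact p = 0.0625, adjusted 0.188). No pair passed with either normalization. With 6 arrays and 6 pairs a single pair cannot reach an adjusted p below 0.188, so that Gata3 minus Hand1 was at the limit the design allows with global loess.

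Ratios differed between print blocks. After global loess the mean ratio of the spots in a block ran from -0.57 to 0.56 over the 48 blocks, and it was -0.12 in block 18, -0.13 in block 21, 0.040 in block 23 and 0.13 in block 42. The 4 clones lay close to these means. The ratio minus the mean of its block was 0.036 for Gata2 of block 18, -0.071 for Gata2 of block 23, -0.10 for Gata3 and 0.049 for Hand1. Print-tip loess, which fits brightness within each block, gave -0.015, -0.0067, -0.11 and 0.020 for the same clones. The part of print position in the global loess ratios was not tested.

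**Figure D3:**
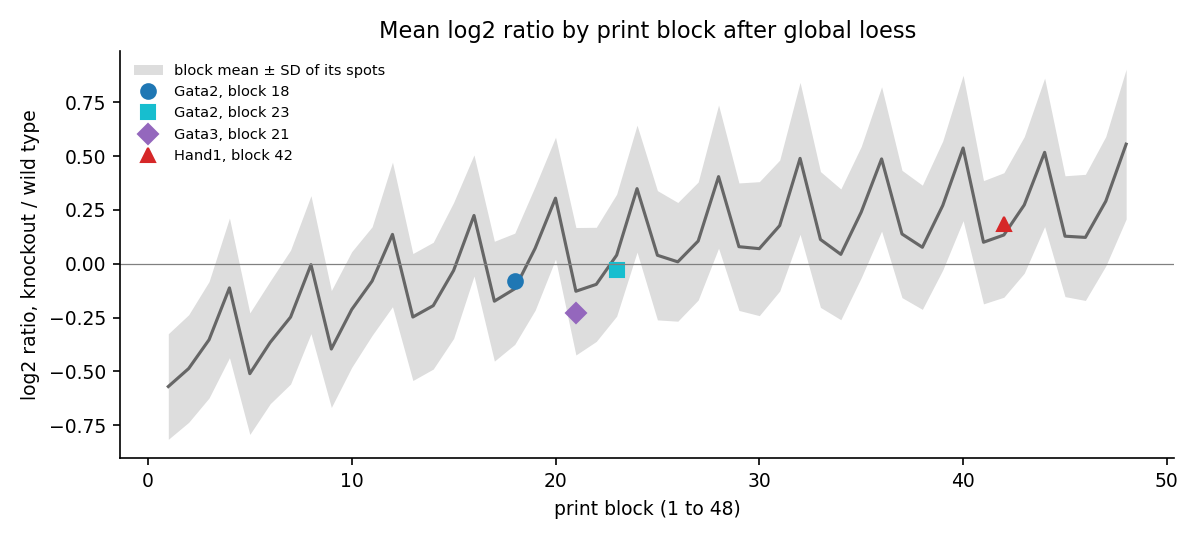
Mean log2 ratio of knockout over wild type after global loess in each of the 48 print blocks (line) with the SD of the spots in it (grey band); symbols are the 4 clones in their blocks. The block mean runs from -0.57 to 0.56 with a saw-tooth shape, and the 4 symbols lie inside the grey band.

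The clones with 1 named gene whose ratios over the 6 arrays were most like these were found for each gene's brightest clone. For Gata2 of block 18 they were Ap4s1, Gtf2h3 and Septin5, with root-mean-square differences of 0.057, 0.082 and 0.090 where the median over 14678 clones was 0.55. For Gata3 they were Dph3, Rev3l and Creld1, at 0.063, 0.078 and 0.080 (median 0.50). For Hand1 they were Ubr7, Arhgap21 and Stimate, at 0.061, 0.076 and 0.085 (median 0.52). Of these 9 clones, 5 lay in the block of the gene they resemble or in one numbered next to it. The farthest was 6 away in block number. Ratios with global loess were used, which leaves differences between blocks. The share of all clones that lie as near was not computed, so the count is a description only.

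The relatives of Gata2 and Gata3 were measured on the same arrays. Gata1, the factor of red blood cell and mast cell development, had global loess ratios of -0.12, 0.52, 0.61, 0.29, 0.68 and 0.39, with array 1 alone below 0. It was higher in the knockout by 0.39 ± 0.13 (SE, n = 6, limma adjusted p = 0.0360) and by 0.33 ± 0.080 with print-tip loess (adjusted p = 0.0356, above 0 on 6 of 6 arrays), but the ratio was 0.28 with median centring (adjusted p = 0.153) and -0.61 in the authors' value table (adjusted p = 0.306). The call also ended without array 2, 3, 4 or 5 with global loess, and without array 2, 3, 4, 5 or 6 with print-tip loess (adjusted p up to 0.109 and 0.0969). Over the whole series, print-tip calls fell from 3260 to 1 without array 2, 3 or 6 and to 19 without array 4.

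After Gata1 was seen to pass, it was set against each of the 4 clones, a choice that favours a difference. With print-tip loess Gata1 exceeded each of them on 6 of 6 arrays, by 0.35 ± 0.12 and 0.34 ± 0.057 over the Gata2 clones, by 0.44 ± 0.065 over Gata3 and by 0.31 ± 0.097 over Hand1 (SE, n = 6, exact permutation p = 0.03125 each, the smallest possible, and 0.03125 after adjustment over the 4 pairs). With global loess the differences were 0.47, 0.43, 0.62 and 0.21, with adjusted exact permutation p of 0.125, 0.125, 0.125 and 0.219. Markers of the cells in which Gata1 acts were read beside it. Of 4 erythroid markers tested, 1 (Epor) was higher with global loess and 0 passed with print-tip loess. The median red signal of Epor was 0.928 times background, and the mean global loess ratio of its block was 0.54. The clone read for Hbb-b1, another of the 4, was titled myosin Vb. Of 4 mast cell markers 2 (Mcpt4 and Tpsb2) were higher with global loess and 0 with print-tip loess. They had 0.58 and 0.41 with global loess, where the means of their blocks were 0.077 and 0.40. Of the 3 Hdc clones, the brightest did not pass, while 1 was lower with global loess and 1 with print-tip loess. The part of erythroid and mast cells in the Gata1 ratio was not tested.

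Gata4 and Gata6, factors of the steroid-producing cortex and of gonads and heart, did not pass with either loess. Gata4 had a ratio of 0.34 with global loess (limma adjusted p = 0.0650) and 0.029 with print-tip loess, and it passed with median centring at 0.41 (adjusted p = 0.0404). Gata6 was read by 2 clones that gave 0.43 and 0.097 with global loess and 0.30 and 0.22 with print-tip loess. The clone of block 41 spread widely over arrays, from -0.54 to 1.15, with an SD of 0.74 that exceeded that of 97.7% of clones. A further clone titled Gata6 had no gene in the annotation and was not used.

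**Figure D4:**
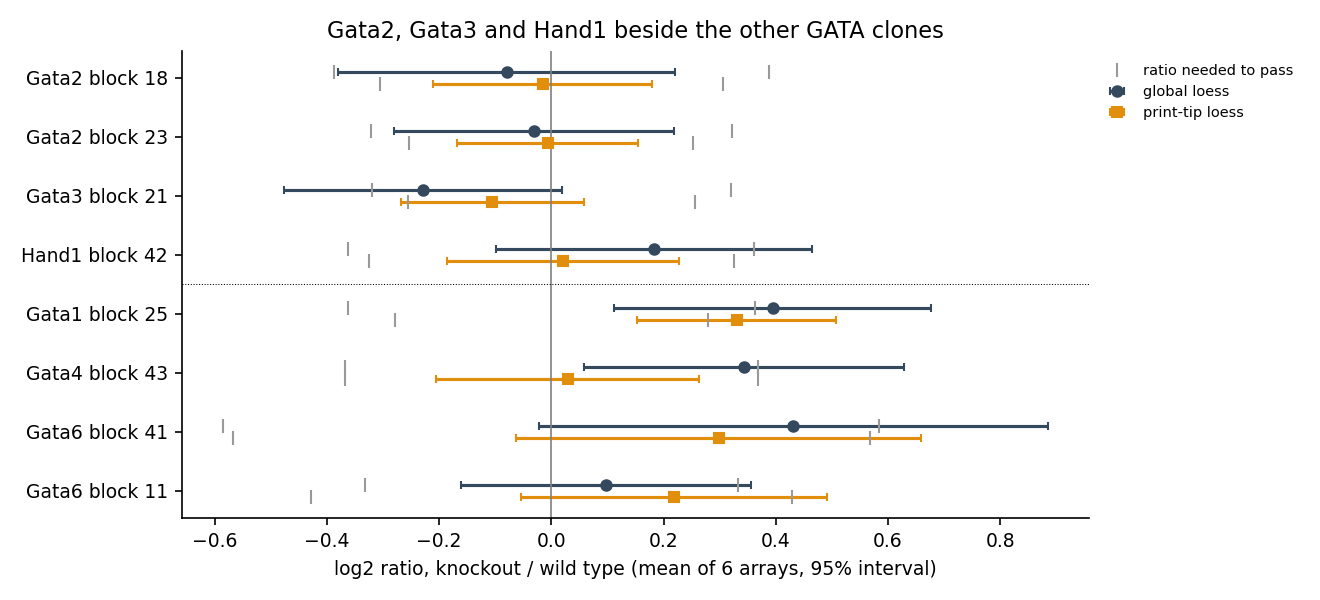
Mean log2 ratio of knockout over wild type over 6 arrays with its 95% interval for the 4 clones of Gata2, Gata3 and Hand1 (above the dotted line) and the 4 clones of Gata1, Gata4 and Gata6, with global loess in dark circles and print-tip loess in orange squares; grey ticks mark the ratio needed to pass. Gata1, at 0.39 and 0.33, is the clone whose mean lies beyond its ticks with both normalizations.

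The partners with which GATA factors act were read from a list of 19 genes, the relatives above included, of which 16 had a clone and 13 were tested. With global loess 2 were higher in the knockout, 0 were lower and 11 did not pass (15.4% called, against 30.4% of all clones), with a median ratio of 0.16 where that of all clones was 0.016. With print-tip loess the counts were the same (15.4%, against 11.4%), with a median of 0.21 against -0.0018. An unadjusted limma p under 0.05 was seen in 4 of 13 with global loess and in 6 of 13 with print-tip loess. Besides Gata1, the gene past the threshold was Ldb2 with global loess (0.53, limma adjusted p = 0.0180) and Ldb1 with print-tip loess (0.47, adjusted p = 0.0313). Both encode LIM domain-binding adaptors, and LDB1 is known to bridge GATA factors at enhancers. Ldb1 had -0.011 with global loess and Ldb2 0.33 with print-tip loess (adjusted p = 0.955 and 0.0537). With print-tip loess 1 of the 3 Ldb1 clones passed, and 1 of the 5 Crebbp clones of this list, not the brightest, was lower. The Ldb2 call ended without array 2, 3 or 4. The Ldb1 call ended without array 2, 3, 4 or 6, where 1 to 19 clones of the whole series passed with print-tip loess. The FOG cofactors that bind GATA proteins did not pass, with 0.15 for Zfpm1 and -0.22 for Zfpm2 with global loess.

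The list of HAND and helix-loop-helix partners had 14 genes, of which 10 had a clone and all 10 were tested. With global loess 1 was higher and 2 were lower, 3 of 10 in all where 30.4% of all clones were called, with a median of -0.13. With print-tip loess 0 passed and the median was 0.021, although 4 of 10 had an unadjusted limma p under 0.05. Fhl2, a LIM-only cofactor known to bind HAND1, was higher by 0.86 ± 0.12 with global loess (SE, n = 6, limma adjusted p = 0.000727) and had 0.35 with print-tip loess (adjusted p = 0.0509). Of its 2 clones, 1 passed. Id2, which encodes an inhibitor that sequesters E proteins, was lower, with a ratio of -0.36 with global loess (adjusted p = 0.0378) and -0.060 with print-tip loess, and 1 of its 5 clones passed. Phf7, from a protein known to bind HAND1, was lower at -0.55 (limma adjusted p = 0.0144, -0.15 with print-tip loess). Of its 2 clones, 1 passed with global loess, and with median centring 1 passed as higher and 1 as lower. The Id2 call ended without array 1, 2, 3, 4 or 6 and the Phf7 call without array 4. The mean global loess ratio was -0.35 in block 3, where the Id2 and Phf7 clones lie, and 0.49 in block 32, that of Fhl2. The brightest clone of each E protein did not pass, with global loess ratios of 0.12 for Tcf3, -0.27 for Tcf4 and 0.041 for Tcf12. Of the 3 Tcf3 clones, 1 was higher with global loess and 0 passed with print-tip loess. The brightest Tcf4 clone was lower with median centring (-0.63, limma adjusted p = 0.00765).

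Other transcription factors of the lineage formed a list of 16 genes. Of these, 7 had a clone and all 7 were tested. The titles of the clones read for Zeb2 and Isl1 named other products, a keratin and a protein weakly similar to a RING finger protein. Sox4, a factor of neural progenitors and sympathetic neuron growth, was lower at -0.71 ± 0.18 with global loess (SE, n = 6, limma adjusted p = 0.00972) and at -0.35 with print-tip loess (adjusted p = 0.0465). Its median red signal was 1.90 times background, and the mean global loess ratio of its block was -0.25. The other 6 did not pass with either, and the median was -0.095 with global loess and 0.089 with print-tip loess. The 1 gene called of 7 is 14.3%, against 30.4% and 11.4% of all clones. The print-tip call of Sox4 ended without array 2, 3, 4 or 6, where 1 to 19 clones of the whole series passed. The print-tip ratio of Sox4 stayed between -0.42 and -0.30 with 1 array left out. Its relative Sox11 had 0.35 and 0.24 (adjusted p = 0.114 with both).

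Genes of noradrenergic and chromaffin cells formed a list of 13, of which 10 had a clone and 8 were tested. Whether they depend on Gata2, Gata3 or Hand1 in this tissue was not tested. With global loess 3 were higher and 2 were lower (62.5%, against 30.4% of all clones), with a median of 0.19. With print-tip loess 1 was higher and 1 lower (25.0%, against 11.4%), with a median of 0.26, and with median centring 3 were higher and 0 lower. Th, which encodes tyrosine hydroxylase, the enzyme that sets the pace of catecholamine synthesis, was higher by 1.10 ± 0.24 with global loess (SE, n = 6, limma adjusted p = 0.00518) and had 0.65 with print-tip loess (adjusted p = 0.0720). The granins Chga and Chgb, proteins of the chromaffin granule core, were higher by 1.26 and 1.01 with global loess (limma adjusted p = 0.00135 and 0.00251). With print-tip loess they had 0.39 and 0.70 (limma adjusted p = 0.0769 and 0.0243). These are the values of the brightest clone of each. The mean global loess ratio of the block was 0.29 for Th, 0.52 for this Chga clone and 0.18 for this Chgb clone. Of the 3 Chga clones, 3 were higher with global loess and 2 with print-tip loess. Of the 2 Chgb clones, 2 were higher with both. The print-tip call of Chgb ended without array 2, 3, 4 or 6, where 1 to 19 clones of the whole series passed.

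Both genes called lower had a red signal near the background, as did Maoa and Gch1 of the same list, which did not pass. Slc18a1, the vesicular monoamine transporter of chromaffin cells, was lower at -0.41 with global loess and -0.46 with print-tip loess (limma adjusted p = 0.0415 and 0.0314), with a median red signal of 1.62 times background. It was measured on 5 arrays, and its global loess call ended without array 2, 3, 4 or 6 and its print-tip call without array 2, 3, 4, 5 or 6. With print-tip loess 1 to 19 clones of the whole series passed without array 2, 3, 4 or 6, and 2725 without array 5. Qdpr, which regenerates the cofactor of tyrosine hydroxylase, had -0.52 with global loess (adjusted p = 0.0252) and 0.17 with print-tip loess, and its 2 clones passed in opposite directions with global loess. That call ended without array 3, 4 or 5. The mean global loess ratio of the block was -0.57 for the brightest Qdpr clone and 0.0395 for Slc18a1.

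Markers of the cells of the gland were read in the same way, against 16.2% of all clones called higher and 14.2% lower with global loess and 6.74% and 4.62% with print-tip loess. Of 7 chromaffin markers tested, 4 were higher and 1 lower with global loess and 1 higher and 1 lower with print-tip loess. Among them Th, Ddc, Slc18a1, Chga and Chgb are the same measurements as in the noradrenergic list, so these counts repeat that list in large part. Snap25, the other marker called with global loess, had 3 clones, of which 1 was higher and 1 lower. Of 7 cortex markers, 4 (Star, Cyp11a1, Hsd3b1 and Nr5a1) were higher with global loess. With print-tip loess 3 (Hsd3b1, Nr5a1 and Scarb1) were higher, and 0 were lower with either. With median centring 4 were higher and 1 (Fdx1) was lower. The median red signal over background ranged from 1.62 to 18.9 among the chromaffin markers and from 1.68 to 51.5 among the cortex markers. It ranged from 1.70 to 30.4 for the T lymphocyte and from 6.87 to 8.97 for the kidney markers, so markers of other tissues were not at background, and these signals do not check the tissue label. Of 7 endothelium markers 2 were higher with global loess and 0 passed with print-tip loess (1 at an unadjusted limma p under 0.05). Of 2 T lymphocyte and 2 kidney markers 0 passed with either, while 1 of each pair had an unadjusted limma p under 0.05 with global loess. Adcyap1, which encodes PACAP, gave no check of the genotype, since the quality filter kept its 1 clone on just 2 arrays, and it had red signals of 0.216 to 1.99 and green signals of 1.73 to 4.002 times background. Its green (knockout) signal was above its red signal on 6 of 6 arrays, as was the median over all clones, and whether this clone covers deleted sequence was not analysed here.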

How the data were processed

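Adrenal RNA of wild-type (red) and PACAP-knockout (green) mice was compared on 6 spotted cDNA arrays. Per the series design text, the authors scanned slides with a GenePix 4000A, analysed images with IPLab, subtracted background and used ratios with a quality above 0.3. Versions of this software are not given in the sources used here. The deposited intensity columns already have the local background subtracted, as the values show. The deposited ratio is red over green scaled by a constant of each array, and the deposited quality score runs from 0 to 1. The authors' deposited value table holds log2 red over green, after background had been subtracted a second time, with scale and direction known from the scanner values (35793 of 35873 entries linked to 1 spot within 0.002) and columns not centred. Genes came from that table's annotation, with symbols updated through RefSeq: 22364 of 36022 clones had 1 gene, 1105 several and 12553 none listed.

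Log2 green over red was computed for 26026 to 31947 spots per array with quality above 0.3, without 1048 control or empty spots, and normalized by global loess (span 0.3, 4 iterations), with print-tip loess beside it. Clones with values on at least 4 arrays were tested in limma 3.58.1 under R 4.3.3 (lmFit, then eBayes), and p-values of the 28710 clones were Benjamini-Hochberg adjusted and called under 0.05. Exact sign-flip permutation tests used Python 3.11.15. The number of arrays limits the precision. Members and lists were chosen with earlier results of these data known. Named were every clone of Gata2, Gata3 and Hand1, list genes past the threshold with either loess, and the 3 most similar clones; other relatives, partners and marker genes were chosen once their values had been seen. Where a gene had several clones, the one of highest mean signal stood for it. Alternatives were other normalizations, filters and background settings, the value table and each array left out.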

Additional observations from a re-analysis of the deposited data

Results flagged for a closer look

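Among the 16 sets of 6 array values examined for these clones (signal over background in each channel and the ratio with each loess), 4 held a single array far from the rest by Dixon's criterion. Chance flags about 1 in 20 sets of independent, normally distributed values, and these sets share the same 6 arrays. On array 1 the red signal over background of Gata2 of block 23 was 7.84 (next 3.51), that of Gata3 was 10.9 (next 5.34) and that of Hand1 was 46.5 (next 15.1). Array 1 also had the highest median red signal over all clones. The green signal over background of Gata2 of block 18 was 18.9 on array 6, with the next at 10.5, and that array gave its highest global loess ratio. None of the 8 sets of normalized ratios met the criterion.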

How the results depend on the processing

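No setting brought Gata2, Gata3 or Hand1 past the threshold, and Gata3 stayed below 0 in every setting run, from -0.27 to -0.19 when 1 array was left out with global loess and from -0.13 to -0.080 with print-tip loess. The signs of the other clones turned in some settings. Gata2 of block 23 had 0.068 with median centring, 0.011 with dim spots left out and 0.0245 with no background correction, and Hand1 had -0.071 with median centring and -1.13 in the authors' value table. With 1 array left out, Gata2 of block 23 ran from -0.065 to 0.0225 with global loess and from -0.030 to 0.016 with print-tip loess, Gata2 of block 18 from -0.063 to 0.036 and Hand1 from -0.035 to 0.094 with print-tip loess. With global loess Gata2 of block 18 ran from -0.21 (without array 6) to -0.011 and Hand1 from 0.12 to 0.27. Without arrays 2 and 4, the dimmest in red and chosen after seeing the data, print-tip values were 0.022 for Gata2 of block 18, 0.027 for that of block 23 and -0.025 for Hand1, and global loess gave 0.024 for block 23. The difference between the Gata2 clones ran from -0.14 to 0.016 with global loess and from -0.071 to 0.053 with print-tip loess when 1 array was left out. With print-tip loess that of Gata2 of block 18 minus Hand1 ran from -0.16 to 0.016 and that of block 23 minus Hand1 from -0.086 to 0.012. With 5 arrays the exact test cannot go below 0.0625.

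The 8735 clones past the threshold with global loess became 3260 with print-tip loess, 4480 to 8658 with 1 array left out (fewest without array 4) and 2235 without arrays 2 and 4. The print-tip count was 1 to 3769 with 1 array left out, at 1 without array 2, 3 or 6 and 19 without array 4. It was 90 without arrays 2 and 4. With all 6 arrays the largest limma p called with print-tip loess was 0.00568. Why the count fell was not tested. In the authors' table, of 9917 calls 73.6% were higher in the knockout, against 53.2% with global loess, and the median of all clones stood at 0.43. Without arrays 2 and 4, the global loess calls of Fhl2, Chga and Chgb held, while those of Gata1, Ldb2, Id2, Sox4, Th and Qdpr ended (limma adjusted p from 0.0655 to 0.263), with ratios of 0.39, 0.44, -0.30, -0.57, 0.71 and -0.56 on the 4 arrays left. Of HAND partners 0 passed with print-tip loess and 5 with median centring, where 3 did with global loess, and of noradrenergic genes 2 and 3 passed, where 5 did. Each array holds both genotypes, so the ratio per array already pairs them, and no further pairing was fitted. Red signal under 2 times background limits Gata2 on arrays 4 and 6.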

Other observations

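The authors' value table and the scanner intensities gave different pictures of Gata2 on array 6. The red intensity of the clone of block 23 was 98.6 over a local background of 87.5, with the background already subtracted. Subtracting it again, as the value table does, left 11, and the table's log2 ratio of wild type over knockout there was -3.39, while on the other 5 arrays it lay between -0.95 and 0.054. The clone of block 18, with a red intensity of 491.1 on that array, kept 409 and had -0.34. After turning the sign and centring each array, the table's SD over arrays was 1.36 for the clone of block 23 and 0.53 for that of block 18, where global loess on the intensities gave 0.15 and 0.35.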
